A study of Mus musculus with 16 samples.

Results

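The genes described here are 10 members of the TGF-beta, activin and Nodal signalling family and its regulators, chosen by name from the 30854 target names of a mouse expression array. They comprise the ligand genes TGFB1, TGFB2, TGFB3, INHBA and NODAL, the receptor genes TGFBR1 and TGFBR2, the inhibitor genes LEFTY1 and LEFTY2, and TGFBI, a gene for a secreted matrix protein named after its induction by TGF-beta. A probe belonged to a gene when its target name equalled the gene symbol, which gave 18 probes. Of these, 15 were detected, with a detection p under 0.05, on all arrays of 1 group or more, and all 10 genes kept at least 1 probe. NODAL, LEFTY1 and LEFTY2 passed through co-culture groups alone.

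Mouse embryonic stem (ES) cells had been co-cultured on PA6, a stromal line from mouse bone marrow that forms a feeder layer, and PA6 cells had also been kept as mono-cultures. Total RNA of 16 cultures was taken at day 7 of serum-free culture and hybridized to Illumina MouseWG-6 arrays, 1 array per culture. The co-cultures comprised 2 arrays without growth factors (-GFs), 3 with recombinant FGF2 at 20 ng/ml and 2 with recombinant BMP4 at 10 ng/ml per the labels (a lower BMP4 dose stands in the methods of the study). Each medium had 3 arrays of PA6 cells alone, at the same doses, and the factor was given for 3 days per the sample characteristics, although other label fields read as 7 days. A co-culture array holds RNA of ES-derived cells and of PA6 cells together, so fewer cells of a type and less RNA per cell cannot be told apart. Values are log2 intensities after background correction and quantile normalization. A gene was called at an adjusted p under 0.1 together with a log2 difference larger than 1 in either direction.

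Ligands of this family are secreted dimers that bind a complex of type I and type II receptor kinases, and the receptors phosphorylate SMAD proteins that enter the nucleus and bind DNA. TGF-beta ligands use TGFBR1 and TGFBR2, while activin and Nodal use activin receptors, Nodal with the co-receptor TDGF1 (Cripto). Nodal signalling patterns the early embryo and is active in mouse ES cells, where it induces its own inhibitors, the Lefty proteins. TGF-beta signalling acts on endothelial cells, fibroblasts and their matrix, and the study asked what part TGF-beta 1 has in the endothelial differentiation that FGF2 drives in these co-cultures.

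The upstream sequences of NODAL and TGFBI are shown because these were the members called between factor-treated and untreated co-cultures. Each run is the 250 bases before the annotated start, 5′ to 3′, from RefSeq on GRCm38.p6, both genes on the plus strand, with the SMAD-binding letters CAGAC (or GTCTG, the same letters on the other strand) in capitals. The Nodal window lies at chr10:61417722-61417971 and the Tgfbi window at chr13:56609336-56609585.
Nodal: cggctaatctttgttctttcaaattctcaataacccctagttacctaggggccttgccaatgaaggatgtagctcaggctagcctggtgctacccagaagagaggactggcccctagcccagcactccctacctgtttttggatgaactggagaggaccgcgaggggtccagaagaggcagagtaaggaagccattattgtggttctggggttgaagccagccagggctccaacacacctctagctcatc
Tgfbi: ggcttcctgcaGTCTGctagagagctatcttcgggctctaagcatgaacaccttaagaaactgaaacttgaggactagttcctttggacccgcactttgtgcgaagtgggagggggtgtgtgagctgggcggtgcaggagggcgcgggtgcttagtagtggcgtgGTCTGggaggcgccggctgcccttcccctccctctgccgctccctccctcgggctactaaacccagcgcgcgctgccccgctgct
The Tgfbi window held 2 matches, 239 and 85 bases before the start. The Nodal window held 0 matches, which says only that these letters are not in this window. The letters are common, since 42.2% of 32851 mouse windows of this length held at least 1 match and 11.7% held 2 or more. Among the members, 7 genes had a window, and 4 of their 8 windows (TGFBR1 has a pair) held a match.

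The share of probes detected on an array was 37.3% to 47%, and the median raw intensity was 177.9 to 232.2. No pair of arrays held identical values. Pluripotency markers (9 genes, OCT4 and NANOG among them) had a mean log2 level of 10.00 to 12.47 on the co-culture arrays and 6.53 to 6.98 on the PA6 arrays. Neural markers were undetected on every PA6 array (9 of 9 genes in each group), and 10 stromal markers were detected on every array of every group.

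**Figure D1:**
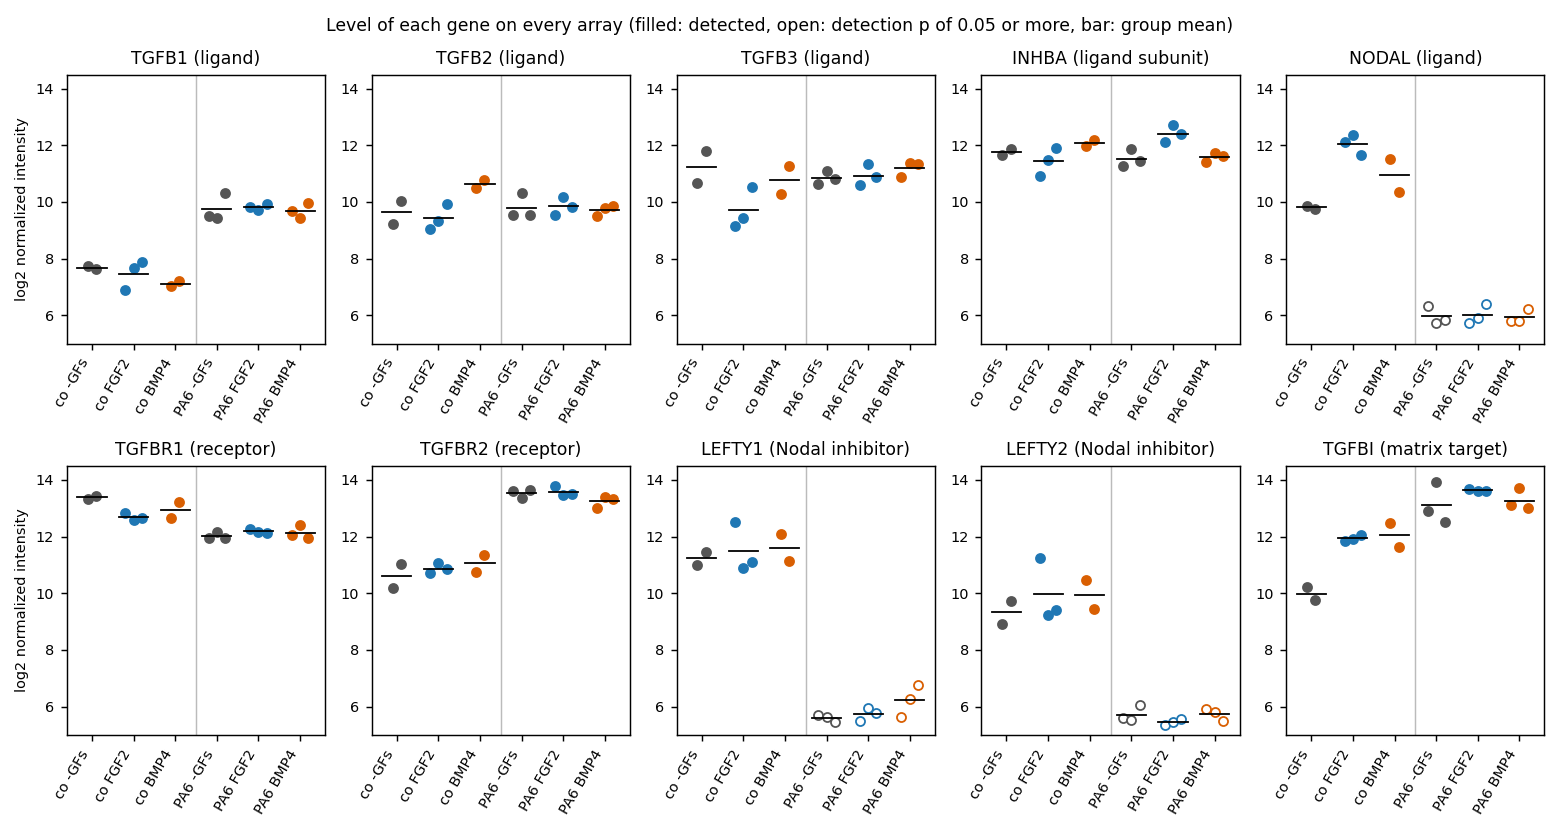
Log2 normalized intensity (vertical axis) of the 10 genes on each of the 16 arrays, by group (horizontal axis), with bars at the group means and open circles where the detection p was 0.05 or more. NODAL, LEFTY1 and LEFTY2 are open on all 9 PA6 arrays, while TGFB1, TGFBR2 and TGFBI sit higher on PA6 arrays than on co-culture arrays.

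With FGF2, NODAL and TGFBI rose in co-culture. NODAL was 4.71-fold and TGFBI 3.87-fold above the co-cultures without growth factors. These were 2 of 10 members, where 7.42% of all 14829 genes tested were called in either direction and 5.07% were higher. The median change of the 10 members was 0.03 on the log2 scale, against -0.06 for all genes.

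NODAL, the ligand that ES cells secrete, had log2 levels of 9.86 and 9.76 on the -GFs co-culture arrays. Its levels with FGF2 were 12.12, 12.35 and 11.67, so every FGF2 array lay above both -GFs arrays. The log2 fold change was 2.23 ± 0.36 (SE, limma adjusted p = 0.0175). The second NODAL probe gave 2.42 ± 0.36 (limma adjusted p = 0.0146) when every probe was fitted. Without -GFs replicate 1 the change was 2.28 and was no longer called (limma adjusted p = 0.105). Arrays in the same run of columns of the table differed by 2.26 and by 1.91.

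TGFBI had levels of 10.22 and 9.75 without growth factors and of 11.86, 11.90 and 12.05 with FGF2. The groups did not overlap, and the FGF2 arrays had an SD of 0.10. Its log2 fold change was 1.95 ± 0.28 (SE, limma adjusted p = 0.0121), and 2.46 ± 0.28 by its second probe (limma adjusted p = 0.00699). TGFBI was called in each of the 7 fits that left out an array.

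TGFB1, the ligand that gives the family its name, showed no detectable difference with FGF2. Its levels were 7.75 and 7.62 without growth factors and 6.90, 7.66 and 7.87 with FGF2, so the FGF2 arrays enclosed the controls. The log2 difference was -0.21 with a 95% interval of -0.90 to 0.48 (limma adjusted p = 0.731). TGFB2 had overlapping groups as well, with levels of 9.24 and 10.03 against 9.06, 9.31 and 9.93.

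TGFB3, the third TGF-beta ligand, had levels of 10.68 and 11.80 without growth factors and of 9.14, 9.43 and 10.55 with FGF2. All FGF2 arrays lay below both control arrays, and the arrays of each group were far apart (SD of 0.79 and 0.74). The difference of -1.53 ± 0.53 was not called (limma adjusted p = 0.145). It became a call with the run of table columns as a block, at -1.40 ± 0.16 (limma adjusted p = 0.0228), and under 5 other settings, and without FGF2 replicate 3 (-1.95, limma adjusted p = 0.0824). Within runs, the FGF2 and -GFs arrays differed by -1.54 and by -1.25.

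INHBA, which encodes the subunit that forms activin A, was at 11.66 and 11.87 without growth factors and at 10.92, 11.50 and 11.91 with FGF2. Its difference of -0.33 ± 0.29 did not pass (limma adjusted p = 0.573). Of the receptors, TGFBR1, the type I kinase, was at 13.34 and 13.45 on control arrays and at 12.82, 12.59 and 12.65 on FGF2 arrays, with no overlap. Its difference of -0.71 ± 0.21 (limma adjusted p = 0.1) was under the limit of fold change, and a second TGFBR1 probe was called at -1.16 ± 0.31 (limma adjusted p = 0.084). TGFBR2, the type II kinase, differed by 0.26 ± 0.31 with overlapping groups.

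The Lefty genes, whose proteins block Nodal at its receptors, were not called with FGF2. LEFTY1 had levels of 11.00 and 11.47 on control arrays and of 12.51, 10.89 and 11.11 on FGF2 arrays. LEFTY2 was at 8.91 and 9.74 without growth factors and at 11.26, 9.24 and 9.40 with FGF2. For both, FGF2 replicate 1 was the highest co-culture array, and the other FGF2 arrays lay inside the control range or, for replicate 2 of LEFTY1, just below it. The differences were 0.27 ± 0.52 for LEFTY1 and 0.64 ± 0.64 for LEFTY2 (SE, limma adjusted p = 0.807 and 0.621). Without FGF2 replicate 1 they became -0.23 and -0.01. The upper ends of their 95% intervals were 1.49 and 2.15, and their difference from NODAL was not tested. Arrays in the same run of columns differed by 1.51 and -0.36 for LEFTY1 and by 2.34 and -0.35 for LEFTY2.

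**Figure D2:**
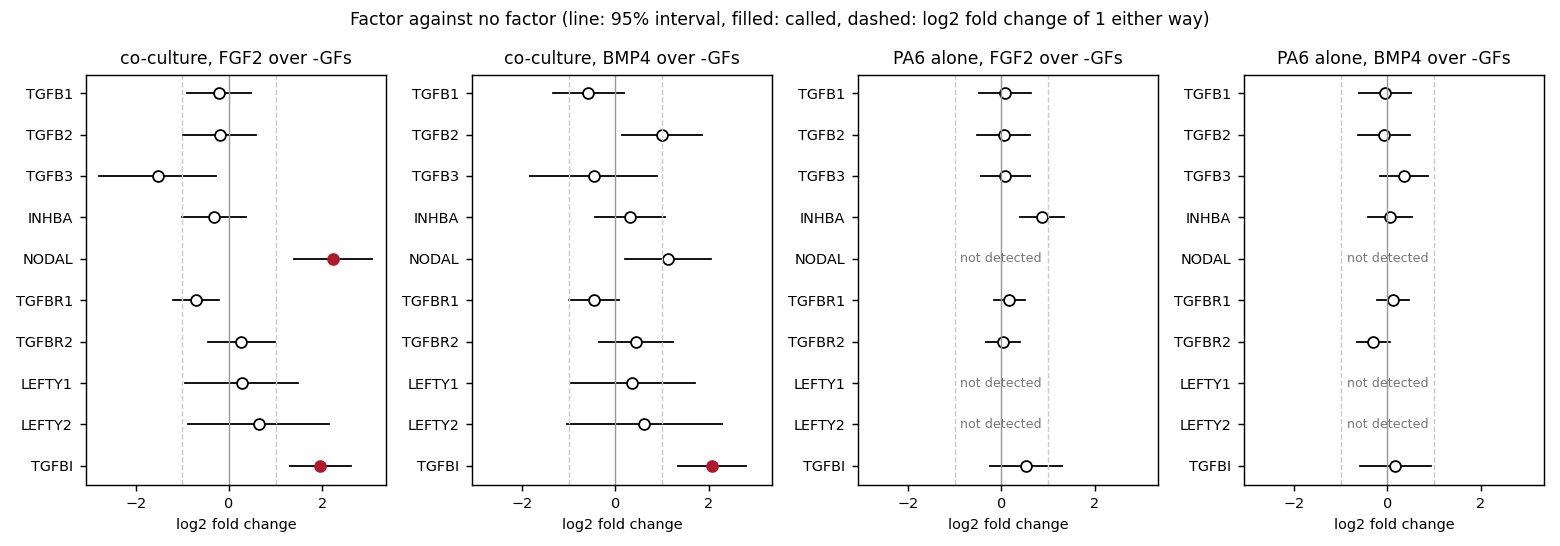
Log2 fold change (horizontal axis) of each gene with FGF2 or BMP4 over no growth factor, in co-cultures (left pair of panels) and in PA6 mono-cultures (right pair), with 95% intervals. Filled circles mark NODAL and TGFBI with FGF2 and TGFBI with BMP4 in co-culture, and no gene is filled in PA6 mono-cultures.

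With BMP4, TGFBI was the member that rose in co-culture. It was 4.21-fold higher than without growth factors, with levels of 12.47 and 11.65 against 10.22 and 9.75. The groups did not overlap, and the log2 fold change was 2.07 ± 0.31 (SE, limma adjusted p = 0.0262). This was 1 of 10 members, where 3.75% of all genes were called in either direction. The second TGFBI probe gave 2.59 ± 0.31 (limma adjusted p = 0.0148). The call was lost without -GFs replicate 2 (1.84, limma adjusted p = 0.111) and without BMP4 replicate 1 (1.66, limma adjusted p = 0.12). The FGF2 and BMP4 comparisons share their -GFs arrays.

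NODAL was at 11.51 and 10.37 with BMP4, above both control arrays and below all 3 FGF2 arrays. Its difference from -GFs was 1.13 ± 0.39 and was not called (limma adjusted p = 0.232), and without BMP4 replicate 2 it was called at 1.70 (limma adjusted p = 0.0906). Within the only run of columns that held both groups, the NODAL difference was 0.61. TGFB2, a TGF-beta ligand with roles in heart and eye development, stood at 10.50 and 10.77 with BMP4, above the controls at 9.24 and 10.03. Its difference of 1.004 ± 0.36 missed the threshold as well (limma adjusted p = 0.254).

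The other members did not pass with BMP4, and several had groups that overlapped. TGFB1 was at 7.02 and 7.20, below both control arrays, with a difference of -0.58 ± 0.32 (limma adjusted p = 0.482). TGFB3 was at 10.28 and 11.27, which overlapped the controls. LEFTY1 stood at 12.08 and 11.13 and LEFTY2 at 10.45 and 9.46, and both overlapped their controls. INHBA stood at 11.99 and 12.19, above both controls, and its difference was 0.32 ± 0.32. TGFBR1 was at 12.67 and 13.21, below both controls, with a difference of -0.45 ± 0.23. TGFBR2 was at 10.76 and 11.36 and overlapped its controls. Over the 9 members not called, the differences ran from -0.58 to 1.13.

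Set against each other, BMP4 and FGF2 co-cultures gave 0 calls among the 10 members by limma, with 1.44% of all genes called, and 2 members at an unadjusted p under 0.05. These were TGFB2, higher with BMP4 by 1.20 ± 0.33 (limma adjusted p = 0.177), and NODAL, at -1.11 ± 0.36 (limma adjusted p = 0.233). In neither gene did the arrays of BMP4 and FGF2 overlap. Both became calls with the run of columns as a block, TGFB2 at 1.01 (limma adjusted p = 0.0756) and NODAL at -1.13 (limma adjusted p = 0.0861), and when all 16 arrays shared 1 fit. TGFBI differed by 0.12, with a 95% interval of -0.54 to 0.78.

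In PA6 mono-cultures, 7 of the 10 members were measured, since NODAL, LEFTY1 and LEFTY2 were undetected on all 9 arrays. With FGF2, limma called 0 of the 7, and 0.0270% of all genes were called. INHBA was the member at an unadjusted p under 0.05. Its levels were 11.26, 11.88 and 11.45 without growth factors and 12.10, 12.71 and 12.40 with FGF2. Every FGF2 array lay above every control, and the arrays within a run of columns differed by 0.83 to 0.95. The log2 difference was 0.87 ± 0.21 (limma adjusted p = 0.219), which is under the limit of fold change too.

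TGFB1 in PA6 cells had levels of 9.49, 9.44 and 10.30 without growth factors and of 9.84, 9.72 and 9.91 with FGF2. Those groups overlapped, and the difference was 0.08 with a 95% interval of -0.47 to 0.63. TGFBI was at 12.89, 13.91 and 12.51 in untreated PA6 cells and at 13.67, 13.61 and 13.61 with FGF2. One untreated array lay above all FGF2 arrays, and the difference of 0.53 ± 0.34 was not called (limma adjusted p = 0.605). With BMP4, 0 of the 7 measured members were called by limma, 0 reached an unadjusted p under 0.05, and 0% of all genes were called. The differences ran from -0.30 for TGFBR2 to 0.36 for TGFB3. Over the 7 members and both factors, no 95% interval reached below -0.66 or above 1.34.

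The response to FGF2 was compared between the kinds of culture by the difference of their effects, co-culture minus PA6. It was called for 2 of the 7 members measured in both, where 7.90% of all genes were called in either direction. NODAL, LEFTY1 and LEFTY2 had no measured response in PA6 cells to compare with. TGFBI differed by 1.43 ± 0.48 (SE, limma adjusted p = 0.0975), a call lost in 12 of 16 fits that left out an array, where it was 1.02 to 1.66. Those arrays were every -GFs and FGF2 co-culture array, every PA6 FGF2 array, PA6 -GFs replicates 1 and 2, and PA6 BMP4 replicates 1 and 3. INHBA differed by -1.20 ± 0.36 (limma adjusted p = 0.0673), with a difference of -0.33 in co-culture beside 0.87 in PA6 cells, and this call was lost in 8 of the 16. Those 8 left out either -GFs co-culture array, co-culture FGF2 replicate 1 or 2, PA6 -GFs replicate 1 or 3, or PA6 FGF2 replicate 2 or 3, and gave -1.31 to -0.94. For BMP4, TGFBI was the 1 member of 7 called (4.23% of all genes), by 1.90 ± 0.51 (limma adjusted p = 0.0631), and the 4 fits without co-culture -GFs replicate 2, co-culture BMP4 replicate 1 or PA6 BMP4 replicate 1 or 3 lost it, at 1.49 to 1.82. When every probe was fitted, the second TGFBI probe gave 2.32 ± 0.52 for FGF2 and 2.70 ± 0.55 for BMP4 (limma adjusted p = 0.0194 for each). In that fit the first probe was not called for FGF2 (limma adjusted p = 0.106). TGFB3 differed by -1.62 ± 0.58 in its FGF2 effects and was not called (limma adjusted p = 0.118). It was called without co-culture FGF2 replicate 3 (-2.04) and under 4 of 11 other settings. These included the replicate number as a block (-2.04 ± 0.27, limma adjusted p = 0.00486) and the run of columns as a block (-1.65 ± 0.44, limma adjusted p = 0.0496). Without co-culture -GFs replicate 1 it was -2.18.

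Between co-cultures and PA6 mono-cultures, 6 or 7 of the 10 members differed in each medium, where 42.4% to 46.4% of all genes did. Without growth factors 7 of 10 members were called, 4 higher and 3 lower, where 44.1% of all genes were, 22.3% higher and 21.8% lower. With FGF2 the count was 7, with 3 higher and 4 lower (46.4% of all genes, 23.4% higher and 22.9% lower). With BMP4 it was 6, with 3 each way (42.4% of all genes, 22.0% higher and 20.3% lower). NODAL, LEFTY1 and LEFTY2 were higher in co-culture in all 3 media, and TGFB1, TGFBR2 and TGFBI were lower in all 3. NODAL, LEFTY1 and LEFTY2 stand in each count but passed the filter through co-cultures alone. Their direction was thus fixed in advance, and the counts are not a result about them.

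NODAL, LEFTY1 and LEFTY2 were detected on every co-culture array and on no PA6 array. NODAL was at least 8.70-fold higher in co-culture than in PA6 in -GFs medium. It was at least 37.8-fold higher with FGF2 and at least 17.0-fold with BMP4. These genes passed the filter through co-cultures alone, so the direction was fixed in advance and no p-value is given. Bounds are set against the detection level of the PA6 arrays. LEFTY1 was higher by at least 23.3-fold, 26.0-fold and 27.0-fold in the same order, and LEFTY2 by at least 6.23-fold, 8.95-fold and 8.60-fold. Raw intensities of NODAL were 1006.6 to 4869.3 on co-culture arrays and 145.3 to 203.2 on PA6 arrays. The nearest approach to detection was LEFTY1 on PA6 BMP4 replicate 3, with a detection p of 0.0502. The second NODAL probe was likewise undetected on all 9 PA6 arrays.

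TGFB1 stood at 6.90 to 7.87 on the co-culture arrays and at 9.42 to 10.30 on the PA6 arrays, with no overlap. Its log2 difference, co-culture minus PA6, was -2.06 ± 0.29 in -GFs medium, -2.35 ± 0.26 with FGF2 and -2.58 ± 0.29 with BMP4. TGFBR2 ran from 10.17 to 11.36 in co-culture and from 13.00 to 13.78 in PA6 cells, also apart. The TGFBR2 differences were -2.94 ± 0.25, -2.71 ± 0.23 and -2.18 ± 0.25. All 6 of these differences were called (limma adjusted p of 3.56e-05 or lower). TGFBI ran from 9.75 to 12.47 in co-culture and from 12.51 to 13.91 in PA6 cells. Its differences were -3.12 ± 0.36 in -GFs medium, -1.69 ± 0.32 with FGF2 and -1.22 ± 0.36 with BMP4. The BMP4 value fell under the limit of fold change when co-culture BMP4 replicate 2 was left out (-0.80) or PA6 BMP4 replicate 2 was (-0.99).

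The remaining ligands and TGFBR1 differed less between the kinds of culture. TGFBR1 was higher in co-culture without growth factors by 1.38 ± 0.18 (limma adjusted p = 1.82e-05), with levels of 13.34 and 13.45 against 11.95 to 12.15 in PA6 cells. Of its 3 other probes, 1 was at 0.98, under the limit, 1 was undetected on all PA6 arrays and 1 was undetected on all 16 arrays. With FGF2 and with BMP4 its differences of 0.50 and 0.80 had limma adjusted p of 0.0154 and 0.00176 but were under the limit of fold change. TGFB3 with FGF2 was lower in co-culture, at -1.23 ± 0.39 (limma adjusted p = 0.012), and without co-culture FGF2 replicate 1 that difference was -0.94. INHBA with FGF2 was at -0.96 ± 0.24 (limma adjusted p = 0.00301), just short of the limit, and was called with median scaling at -1.33. TGFB2 differed by -0.17, -0.42 and 0.91 in the 3 media and was not called in any.

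**Figure D3:**
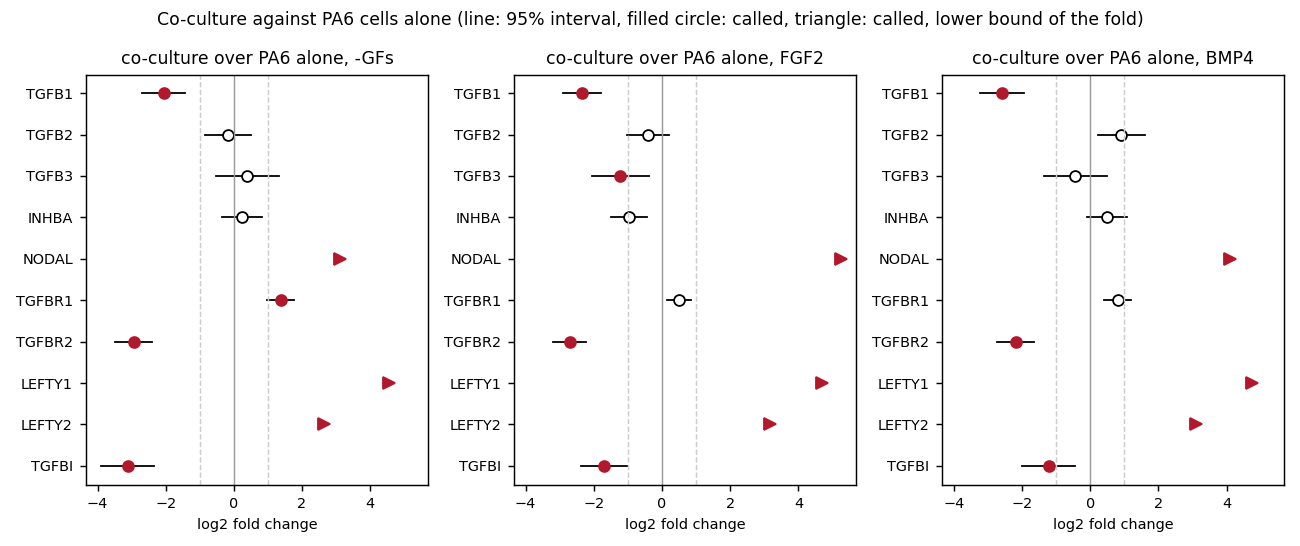
Log2 fold change (horizontal axis) of each gene in co-culture over PA6 cells alone, in each medium, with 95% intervals, and triangles at the lower bound where the PA6 arrays were undetected. NODAL, LEFTY1 and LEFTY2 lie to the right in all 3 panels, and TGFB1, TGFBR2 and TGFBI lie to the left.

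Cell type markers moved with these comparisons, and their part in the members' differences was not tested. The mean level of 10 stromal markers was 11.24 to 12.06 on the co-culture arrays and 13.83 to 14.15 on the PA6 arrays. In co-culture against PA6, 9 of 10 of them were lower in each medium, with medians of -2.71, -2.39 and -2.30. TGFB1, TGFBR2 and TGFBI lay in that direction beside them. Within co-cultures with FGF2, 0 of 10 were called by limma, 0 had an unadjusted p under 0.05, and the median was 0.29. With BMP4, 0 of 10 were called as well, with 2 at an unadjusted p under 0.05 and a median of 0.43.

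Pluripotency markers moved with FGF2 in the direction NODAL took. With FGF2, 8 of 9 rose (median 2.40), KLF4 by 3.37 ± 0.47, OCT4 (POU5F1) by 2.70 ± 0.43 and NANOG by 2.15 ± 0.23 (limma adjusted p of 0.0111, 0.0181 and 0.00587). Their mean level was 10.00 and 10.09 on the -GFs arrays, 12.23, 12.47 and 12.15 on the FGF2 arrays, and 11.56 and 10.72 on the BMP4 arrays. NODAL was highest on FGF2 replicate 2 and lower on BMP4 replicate 2 than on replicate 1, as was this mean. On the -GFs arrays the orders of NODAL and of this mean were opposite. With BMP4, 4 of 9 rose, and the median was 1.15. LEFTY1 and LEFTY2 were highest on FGF2 replicate 1 instead.

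Endothelial markers were partly detected. Of 6, 2 passed the filter. PECAM1 rose by 3.24 ± 0.42 with FGF2 and by 1.98 ± 0.46 with BMP4 (limma adjusted p of 0.0098 and 0.088), beside the rise of TGFBI. TEK was at least 5.86-fold higher with FGF2 and at least 3.28-fold with BMP4. It passed the filter through these factor-treated co-cultures alone, so its direction was fixed in advance. CDH5, TIE1 and ICAM2 were undetected on every -GFs and FGF2 co-culture array. Epithelial markers rose with BMP4 in 3 of 5 genes, with KRT14 at least 109.6-fold and TRP63 at least 20.3-fold higher than without growth factors. KRT14 passed the filter through the BMP4 co-cultures alone. Of 6 neural markers tested, 2 fell with FGF2 (NES and HES5) and 2 with BMP4 (HES5 and DCX). The mean of 6 adipocyte markers ran from 8.26 to 10.52 in untreated PA6 cells, from 7.31 to 8.75 with FGF2 and from 10.00 to 12.28 with BMP4, and limma called 0 of the 5 tested with either factor there, with 0 and 4 at an unadjusted p under 0.05.

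**Figure D4:**
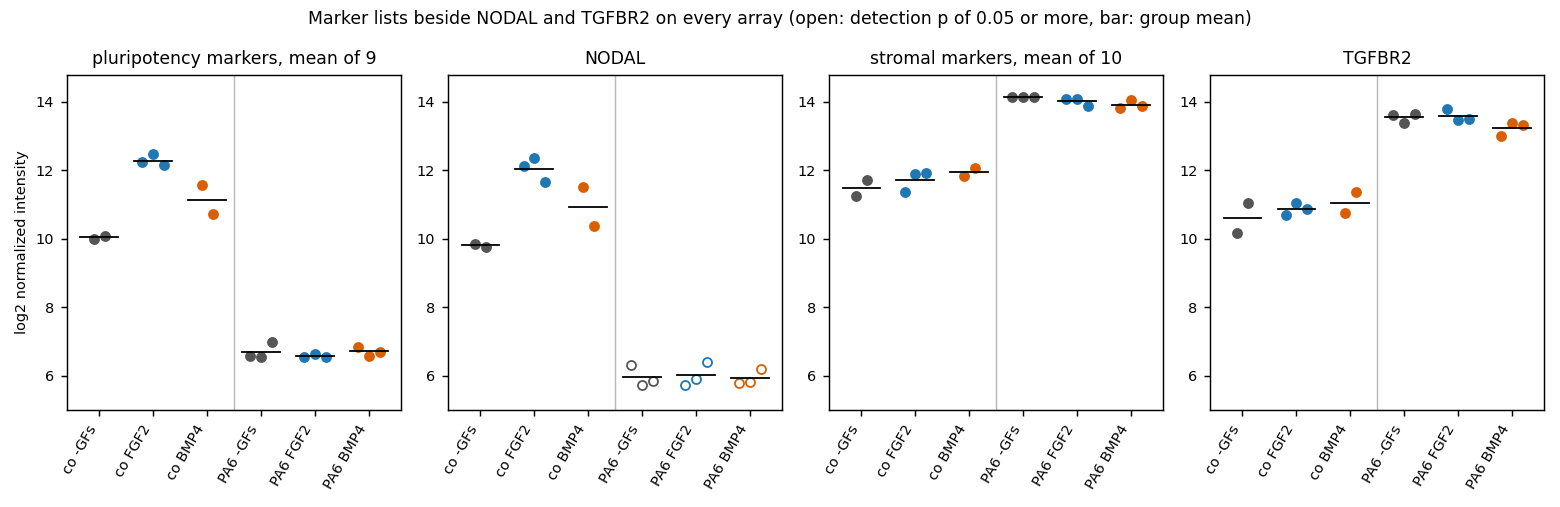
Mean log2 intensity of 9 pluripotency markers and of 10 stromal markers on each array, beside NODAL and TGFBR2 (vertical axes), by group (horizontal axes), with bars at group means and open circles where NODAL was undetected. On the co-culture arrays the pluripotency mean and NODAL both run from the -GFs arrays at the bottom to the FGF2 arrays at the top, and TGFBR2 and the stromal mean are higher on the PA6 arrays.

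Other genes of the pathway were described by 5 lists, 49 genes of which passed the filter. With FGF2 in co-culture, 5 rose and 1 fell, where 7.42% of all genes were called, and with BMP4, 4 rose and 0 fell, where 3.75% were. TDGF1 (Cripto), the Nodal co-receptor, rose by 2.89 ± 0.56 with FGF2 (limma adjusted p = 0.0305), and the 7 other receptors tested did not pass. GDF3, another ligand of the family, rose by 2.10 ± 0.24 with FGF2 and by 1.20 ± 0.26 with BMP4 (limma adjusted p of 0.00718 and 0.0755). FST, which encodes the activin antagonist follistatin, was the gene that fell, at -1.11 ± 0.24 (limma adjusted p = 0.0422).

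Inside the cell, TGIF1, a repressor of SMAD-driven transcription, rose by 1.35 ± 0.23 with FGF2 and SMURF1, a ubiquitin ligase that acts on SMADs and receptors, by 1.41 ± 0.35 (limma adjusted p of 0.0205 and 0.0607). With BMP4, limma called 0 of the 9 transducers and modulators, with 1 at an unadjusted p under 0.05. Among 14 TGF-beta target genes, IGFBP3, which encodes a carrier of insulin-like growth factors, rose by 1.40 ± 0.19 with FGF2 and by 1.70 ± 0.20 with BMP4 (limma adjusted p of 0.0103 and 0.014). SNAI2, the transcription factor Slug, rose by 2.16 ± 0.19 with BMP4 (limma adjusted p = 0.00653). The other target genes did not pass, and the median of the list was 0.29 with FGF2 and 0.32 with BMP4, against -0.06 and -0.0015 for all genes.

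Of the Nodal target and mesendoderm genes, 0 of 5 were called with FGF2 by limma, 2 had an unadjusted p under 0.05, and the median was -0.29. T (Brachyury), a mesoderm gene, was at -1.77 ± 0.65 (limma adjusted p = 0.166). With BMP4, SOX17, an endoderm and endothelial gene, rose at least 2.43-fold (limma adjusted p = 0.0109). In co-culture over PA6 cells, 4, 4 and 5 of the 5 genes of this list were higher in -GFs, FGF2 and BMP4 cultures, in that order. Of all genes, 22.3%, 23.4% and 22.0% were higher. LHX1 was higher by at least 9.94-fold in each medium. It was undetected in PA6 cells and passed the filter through co-cultures alone, so its direction was fixed in advance. In PA6 mono-cultures, 0 of the genes in these 5 lists were called by limma with either factor, while 8 had an unadjusted p under 0.05 with FGF2 and 2 did with BMP4.

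**Figure D5:**
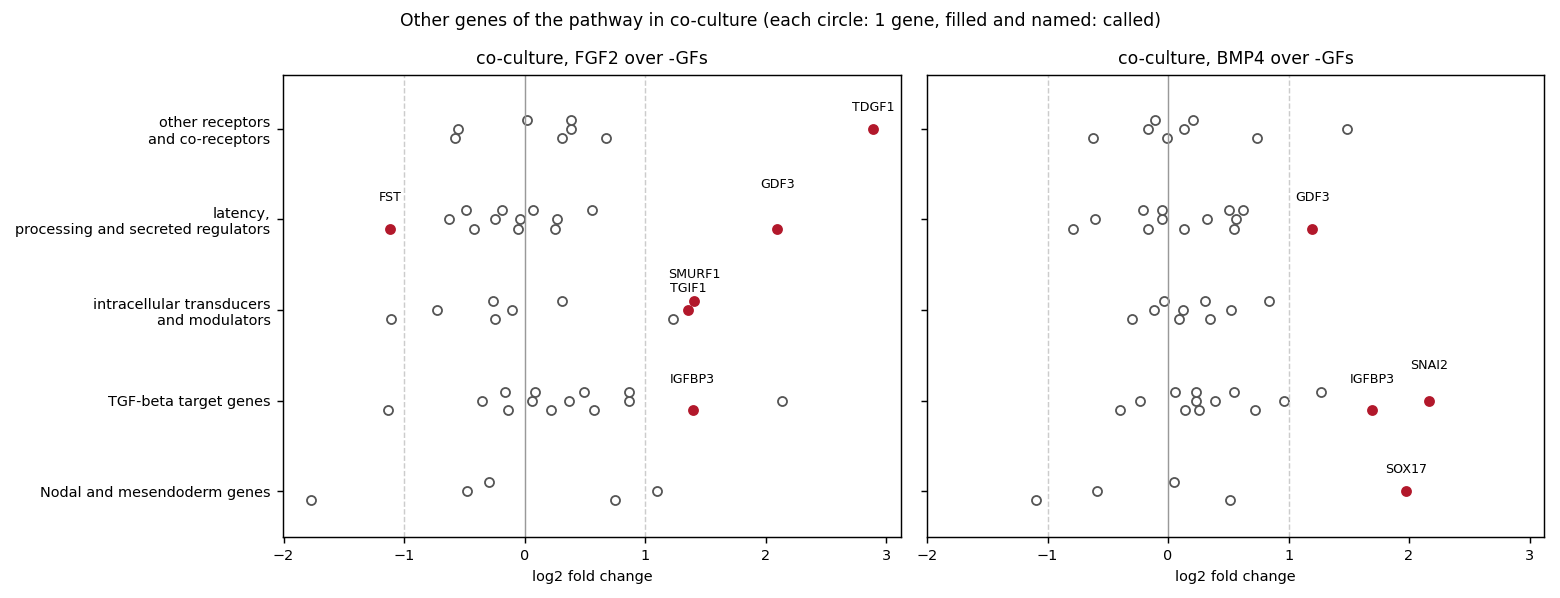
Fitted log2 fold change (horizontal axis) of the other pathway genes in co-culture with FGF2 (left) and BMP4 (right) over no growth factor, each circle a gene and each row a list. Filled, named circles were called, with TDGF1 and GDF3 farthest right in their rows with FGF2 and FST on the left.

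The order of group means was read with the ranges of neighbouring groups. For NODAL the order was co-culture FGF2, BMP4 and -GFs, with no overlap between neighbours, and then the undetected PA6 groups. For TGFBI it was PA6 FGF2, BMP4 and -GFs, which overlapped, then co-culture BMP4 and FGF2, which overlapped each other, and co-culture -GFs last and apart. TGFB1 and TGFBR2 showed a single gap, of 2.01 and 2.18, between the lowest PA6 group and the highest co-culture group. TGFB3 had no gap between any neighbours, and TGFB2 was set apart only in BMP4 co-cultures, by 0.78 between means.

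Among all genes tested, the 6 group means of NODAL, centred on their own mean, were most like those of GDF3, with a root mean square difference of 0.12 on the log2 scale. The gene nearest to TGFBI was BMP4, at 0.24, to TGFB1 it was TOB2, at 0.10, and to TGFBR2 it was 6330403M23RIK, at 0.07. LEFTY1 and LEFTY2 were nearest to EMID2 and CKMT1, at 0.13 and 0.10. For NODAL, LEFTY1 and LEFTY2 the PA6 means are undetected background signal, so part of their likeness lies at that level. With 6 means, such likeness is a description.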

How the data were processed

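Per the labels, total RNA was extracted with Trizol, purified on columns, amplified to biotinylated cRNA and hybridized to the arrays, and wells were set up for each biological replicate. The authors deposited a non-normalized table of 45281 probes with a mean bead intensity and a detection p-value per array, exported from GenomeStudio 2011.01 per the submitters' processing notes. The genome build behind the array's probe annotation is not given in the sources used here. The normalization named in the methods of the study was not applied.

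Intensities were background-corrected by normexp with the detection p-values, offset 16, and quantile normalized (neqc, limma 3.58.1, R 4.3.3). The filter kept the 20880 probes with a detection p under 0.05 on all arrays of 1 group or more, and the brightest stood for a gene (14829). Linear models with moderated variances were fitted to the 7 co-culture arrays, to the 9 PA6 arrays, and to all 16 for comparisons between cultures, with Benjamini-Hochberg adjustment over all genes. Bounds for undetected genes used the lowest detected signal on each array. Columns were matched to sample titles by their letter and number codes, and they stand in 3 runs of 5, 5 and 6 arrays, which the labels do not explain. The number of arrays limits the precision. Members and gene lists were chosen with earlier results of these data known, and all 10 members were named. Pathway and marker genes were named where called or where a result turned on them. Scripts were tested on simulated data. Alternatives covered scaling, background, filter, probes, thresholds, blocks, the arrays fitted and leaving out each array.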

Additional observations from a re-analysis of the deposited data

Results flagged for a closer look

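In 3 cases the response to a factor differed between co-cultures and PA6 mono-cultures by a test of the difference itself (limma, co-culture minus PA6). For FGF2 the difference of log2 changes was 1.43 for TGFBI and -1.20 for INHBA. For BMP4 it was 1.90 for TGFBI. The 2 TGFBI calls and the INHBA call were lost when the adjusted p had to be under 0.05. The second TGFBI probe gave 2.32 for FGF2 and 2.70 for BMP4 (limma adjusted p = 0.0194 for each). Groups of 2 or 3 arrays were too small for a test of outlying arrays.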

How the results depend on the processing

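Of 2116 member values recomputed, 55 turned their sign, 44 with an array left out and 11 under another setting, and 0 of these were called. TGFBI with FGF2 in co-culture was called in all 7 fits without an array and under all 11 other settings, and NODAL was lost without -GFs replicate 1 and was not tested where detection on all 16 arrays was required.

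Under median scaling the sign turned for LEFTY2 between BMP4 and FGF2 (0.23), for TGFB1 (-0.0654), TGFB2 (-0.10), TGFB3 (-0.0433) and TGFBR2 (-0.0504) with FGF2 in PA6 cells, for TGFBR1 (-0.0393) and INHBA (-0.10) with BMP4 in PA6 cells, for INHBA in co-culture over PA6 without growth factors (-0.0266) and for LEFTY1 in the difference of FGF2 effects (-0.0498).

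Replicate numbers are shared between groups, but same-numbered arrays did not deviate together in co-cultures (correlations of -0.20 to 0.28, over 0.1 in 1 of 6 pairs), while in PA6 cells 7 of 9 pairs were over 0.1. Co-culture arrays of the same column run had correlations of 0.0976 to 0.28, over 0.1 in 4 of 5 pairs, against 0 of 11 pairs of different runs. In co-culture groups of 2 arrays, deviations from the group mean mirror each other, so the co-culture pairs are not independent. With the replicate number as a block, 3 members were called with FGF2 in co-culture, 1 with BMP4, 0 between BMP4 and FGF2, 0 and 0 in PA6 cells, 4 in the difference of FGF2 effects and 2 in that of BMP4 effects. LEFTY1 between BMP4 and FGF2 turned to -0.10 under this block. It could not be fitted for co-culture against PA6. With the column run as a block, LEFTY2 between BMP4 and FGF2 turned to 0.24.

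Counts of called members moved as follows, where counts for differences of effects include NODAL, LEFTY1 and LEFTY2, undetected in PA6 cells. Detection on all 16 arrays left 1 with FGF2 in co-culture, 4, 4 and 3 in co-culture over PA6 (-GFs, FGF2, BMP4) and 0 for the difference of BMP4 effects. A single fit of all arrays gave 2 with BMP4 and 2 between BMP4 and FGF2, where median scaling gave 1 and the column run block 2. The difference of FGF2 effects fell to 1 under median scaling, with no filter and at an adjusted p under 0.05. That of BMP4 effects fell to 0 with no filter, at an adjusted p under 0.05 and with the groups compared alone. The cause of these moves was not tested, apart from filters that remove undetected members. Leaving out each array gave 1 to 3 with FGF2, 0 to 2 with BMP4, 0 between them, 0 in PA6 cells, 7, 6 to 8 and 5 to 8 in co-culture over PA6, and 1 to 3 and 0 to 2 for the differences of FGF2 and BMP4 effects.

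Leaving out each array turned a sign in these ranges. With FGF2 in co-culture they were -0.41 to 0.075 for TGFB1, -0.59 to 0.20 for TGFB2, -0.17 to 0.70 for TGFBR2, -0.23 to 0.58 for LEFTY1 and -0.0091 to 1.05 for LEFTY2. With BMP4 they were -1.02 to 0.10 for TGFB3 and -0.10 to 0.85 for LEFTY1. Between BMP4 and FGF2 they were -0.0111 to 0.53 for TGFBR1, -0.11 to 0.48 for TGFBR2, -0.38 to 0.60 for LEFTY1, -0.51 to 0.63 for LEFTY2 and -0.29 to 0.53 for TGFBI. In PA6 cells with FGF2 they were -0.0743 to 0.36 for TGFB1, -0.12 to 0.30 for TGFB2, -0.11 to 0.26 for TGFB3 and -0.0598 to 0.0935 for TGFBR2. With BMP4 there they were -0.20 to 0.23 for TGFB1, -0.21 to 0.18 for TGFB2, -0.0172 to 0.22 for TGFBR1, -0.0739 to 0.23 for INHBA and -0.13 to 0.58 for TGFBI. In co-culture over PA6 they were -0.57 to 0.23 for TGFB2 and -0.17 to 0.95 for TGFB3 without growth factors, and -0.93 to 0.0609 for TGFB3 with BMP4. For the difference of FGF2 effects they were -0.64 to 0.15 for TGFB2, -0.21 to 0.66 for TGFBR2 and -0.37 to 0.44 for LEFTY1, and for that of BMP4 effects -0.73 to 0.22 for LEFTY1.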
